A study of Mus musculus with 24 samples.

Results

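The siRNA by day interaction was examined in CGR8 cells, a mouse embryonic stem cell (ESC) line, that carried no rescue. For each gene it is the effect of the Rsl24d1 siRNA at day 4 of retinoic acid (RA) treatment minus the effect of the same siRNA at day 0. A gene whose response to the siRNA was lost, gained or reversed during differentiation has an interaction away from 0. The 12 libraries that enter this contrast, of 24 in the series, fall into 4 groups of 3. At day 0, CGR8 cells in FBS and LIF received either a control siRNA (si-CTL) or an siRNA pool against Rsl24d1 (si-Rsl24d1). At day 4, cells transfected in the same way had been seeded and treated with 10 nM RA for 4 days. The labels describe the cells of all 4 groups as carrying an empty vector, whereas the study's methods describe a CGR8-RESCUE line kept without doxycycline. The other 12 libraries are the same 4 groups with doxycycline, which induces an ectopic Rsl24d1 (with rescue), and they serve here as a separate set of samples. Nothing states that the 3 libraries of a group came from separate cultures, so p-values measure the spread between these libraries.

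RSL24D1 is a ribosome biogenesis factor that binds nuclear pre-60S particles, the precursors of the large ribosomal subunit, and leaves them before the ribosomal protein RPL24 takes its place. When assembly of the large subunit is impaired, unassembled ribosomal components can bind MDM2, the ubiquitin ligase that degrades p53, and p53 then activates its target genes. ATF4 is a transcription factor made when cells sense amino acid shortage or other stress, and its targets include amino acid transporters, synthesis enzymes and aminoacyl-tRNA synthetases. RA withdraws ESCs from pluripotency and activates genes of differentiated lineages.

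Values are log2(TPM + 1) as deposited, and a change is a difference on that scale, which understates the change of genes at low levels. TPM keeps no sequencing depth. A gene was called where limma's adjusted p was below 0.01 and the difference exceeded 1.8-fold, that is 0.848 on the log2 scale. Between 13775 and 14459 genes were above 1 TPM in these libraries. Pou5f1, Nanog and Sox2, the core pluripotency factors that mark ESCs, were present in the 12 libraries, at no less than 8.96, 7.08 and 7.38, at day 4 as well as at day 0. One library stood apart: in the si-Rsl24d1 library of replicate 1 at day 4, ribosomal protein mRNAs took 21.3% of the TPM, against 18.6% and 18.2% in replicates 2 and 3 and 21.6% to 22.3% in si-CTL at day 4. Counts of interaction genes that moved by over 1.5 times without it are given both ways.

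Rsl24d1, the targeted gene (chromosome 9, 73113426 to 73123333, plus strand, gencode vM21 on GRCm38), was itself among the interaction genes. At day 0 its mRNA was at 7.22, 7.14 and 7.10 in si-CTL and at 5.23, 5.28 and 5.07 in si-Rsl24d1. At day 4 it was at 6.60, 6.67 and 6.61 in si-CTL and at 6.50, 6.61 and 6.65 in si-Rsl24d1. The depletion seen at day 0 was therefore not seen at day 4, where the groups overlapped. The siRNA effect was -1.95 ± 0.07 (SE) at day 0 and -0.04 ± 0.07 at day 4 (95% interval -0.19 to 0.11), and the interaction was 1.91 ± 0.10 (limma, adjusted p = 2.7e-11). Differentiation and the return of the targeted mRNA with time after transfection cannot be told apart in any result that follows. In si-CTL, Rsl24d1 mRNA was itself lower at day 4 than at day 0, with a difference of -0.52 ± 0.07 (limma, adjusted p = 1.6e-06), short of the fold threshold.

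Of 16447 genes tested, 922 had a called interaction. For 477 genes (2.9% of those tested) the siRNA effect was higher at day 4 than at day 0, and for 445 genes (2.71%) it was lower. The median interaction of all genes was 0.14, and values below are read relative to it. With median of ratios scaling in place of TPM, this median was 0.02 and the calls became 281 higher and 576 lower, so 51.7% of calls were higher in the TPM values and 32.8% after rescaling. Of the 922 genes, 726 were called under both scalings. Without the si-Rsl24d1 library of replicate 1 at day 4, 1130 genes were called, 704 higher and 426 lower. For 915 of the 922 genes, the 9 differences between si-Rsl24d1 and si-CTL libraries at day 4 lay all above or all below the 9 differences at day 0, while over all genes tested 25.4% lay all above and 10.6% all below. The same libraries made the calls, so this separation is largely set by the call and is a description. Calls just inside the threshold included Ptk2b (-0.85) and Nfe2l1 (0.85), and just outside it lay Uhrf1bp1 (0.85), Sec16a (0.85) and Pet100 (-0.85).

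The siRNA alone raised 560 genes (3.4%) and lowered 127 (0.772%) at day 0, and raised 238 (1.45%) and lowered 30 (0.182%) at day 4. Interaction genes were sorted by these calls. The most frequent pattern was a lost rise, with 358 genes called higher at day 0 and not at day 4. A lost fall was found for 98 genes, a gained rise for 107 and a gained fall for 17. Reversal from a rise to a fall was found for 2 genes, Dcxr and Anxa8, and reversal from a fall to a rise for 0. The other 340 genes passed the interaction test with neither day's effect past the threshold. Since the day effects sorted the genes, their size within a class is a description. Of the 560 genes raised at day 0, 64.3% had a lower effect at day 4 by the interaction test, and of the 127 lowered, 77.2% had a higher effect. The day 4 effect was 14.8% of the day 0 effect at the median of the raised genes and -3.41% at the median of the lowered genes. These genes were chosen by the day 0 effect, which also enters the interaction. The shares and percentages are therefore partly set by that choice and are descriptions. Only 38 genes were called on both days, of which 36 rose on both with no called interaction and 2 were the reversed genes. Across the 16447 genes, the effects at day 0 and day 4 had a Pearson correlation of 0.0416, given as a description, since genes are not independent replicates.

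**Figure D1:**
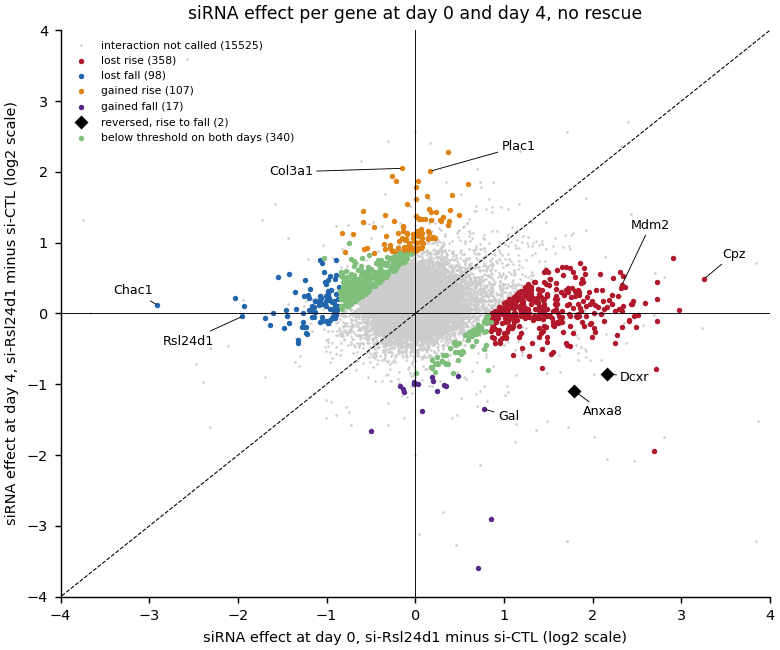
siRNA effect of each gene at day 0 (x axis) and day 4 (y axis), each as si-Rsl24d1 minus si-CTL on the log2(TPM + 1) scale with 3 libraries a group; colours mark the classes of called interaction genes, grey the other genes, and the dashed line equal effects. The 358 lost rises stretch along the x axis near a day 4 effect of 0, and 4 genes, 1 of them an interaction gene, lie outside the axes.

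p53 targets were the list with the most lost rises. p53 itself is encoded by Trp53, and of 30 target genes tested 20 were raised by the siRNA at day 0 and 0 at day 4. At day 4, 22 of them had an unadjusted limma p below 0.05, in either direction, beside 8741 of all 16447 genes tested. Of these 30, 17 had a called lower interaction and 0 a called higher one, with a median interaction of -0.96 beside 0.14 for all genes. The list's mean level was between 5.87 and 5.93 in si-Rsl24d1 at day 0, between 4.70 and 4.80 in si-CTL at day 0, between 4.81 and 4.87 in si-CTL at day 4 and between 4.95 and 5.11 in si-Rsl24d1 at day 4. The list was thus highest in the si-Rsl24d1 libraries of day 0, while at day 4 the si-Rsl24d1 libraries lay just above the range of si-CTL. Trp53 mRNA did not carry a called interaction (0.07 ± 0.07, limma, adjusted p = 0.44; -0.09 after median of ratios scaling).

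Mdm2, which encodes the ubiquitin ligase of p53 and is its transcriptional target (chromosome 10, 117688875 to 117710758, minus strand), had values of 6.78, 6.66 and 6.62 in si-CTL and 9.09, 8.97 and 9.02 in si-Rsl24d1 at day 0. At day 4 it was at 6.41, 6.44 and 6.44 in si-CTL and at 6.69, 6.89 and 6.90 in si-Rsl24d1. A gap remained between the groups at day 4, but it was small beside that of day 0. The effect went from 2.33 ± 0.06 to 0.40 ± 0.06, an interaction of -1.94 ± 0.08 (limma, adjusted p = 1.8e-12). Cdkn1a, the cyclin-dependent kinase inhibitor p21, behaved alike with smaller values, 1.18 ± 0.05 at day 0 and 0.21 ± 0.05 at day 4 (interaction -0.97 ± 0.07, limma, adjusted p = 1.7e-09).

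Among the p53 targets, Gpx3 and Zfp365 had the largest interactions. Gpx3 encodes a secreted glutathione peroxidase. It was at 4.36, 4.40 and 4.37 in si-CTL and 6.86, 6.78 and 6.88 in si-Rsl24d1 at day 0, and at 6.14, 6.01 and 6.18 in si-CTL and 6.26, 6.37 and 6.24 in si-Rsl24d1 at day 4. Here the si-CTL cells came up to near the level of the si-Rsl24d1 cells, a rise of 1.74 ± 0.06 with RA (limma, adjusted p = 1.6e-15), while the difference between the days in si-Rsl24d1 cells was -0.55. The interaction was -2.28 ± 0.08 (adjusted p = 1.2e-13). For Zfp365, a zinc finger gene, the values at day 0 were 3.70, 3.57 and 3.50 in si-CTL and 6.00, 5.89 and 5.89 in si-Rsl24d1, and at day 4 they were 2.80, 2.69 and 2.78 in si-CTL and 2.50, 2.91 and 2.99 in si-Rsl24d1. In contrast to Gpx3, it was lower at day 4 on both arms, by differences of -0.83 and -3.13, and the day 4 groups overlapped (interaction -2.30 ± 0.14, limma, adjusted p = 2.6e-10).

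The largest lost rises among protein-coding genes were Shisal2b, Ltb4r2, Cpz and Gm29797. Cpz encodes carboxypeptidase Z, a secreted enzyme that can bind Wnt proteins. It was at 0.90, 0.84 and 0.80 in si-CTL and 4.15, 4.01 and 4.16 in si-Rsl24d1 at day 0, and at 0.94, 0.91 and 1.16 in si-CTL and 1.44, 1.45 and 1.57 in si-Rsl24d1 at day 4 (interaction -2.77 ± 0.12, limma, adjusted p = 2.4e-12). Ltb4r2, a leukotriene B4 receptor gene, went from 1.08, 1.01 and 0.86 in si-CTL and 4.03, 3.91 and 3.93 in si-Rsl24d1 at day 0 to 0.61, 0.43 and 0.51 in si-CTL and 0.42, 0.69 and 0.59 in si-Rsl24d1 at day 4. The groups overlapped at day 4 (interaction -2.92 ± 0.13, limma, adjusted p = 4.0e-12). Shisal2b had an interaction of -3.51 ± 0.31 and Gm29797 of -2.68 ± 0.22, with day 4 effects of -0.78 and -0.19.

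**Figure D2:**
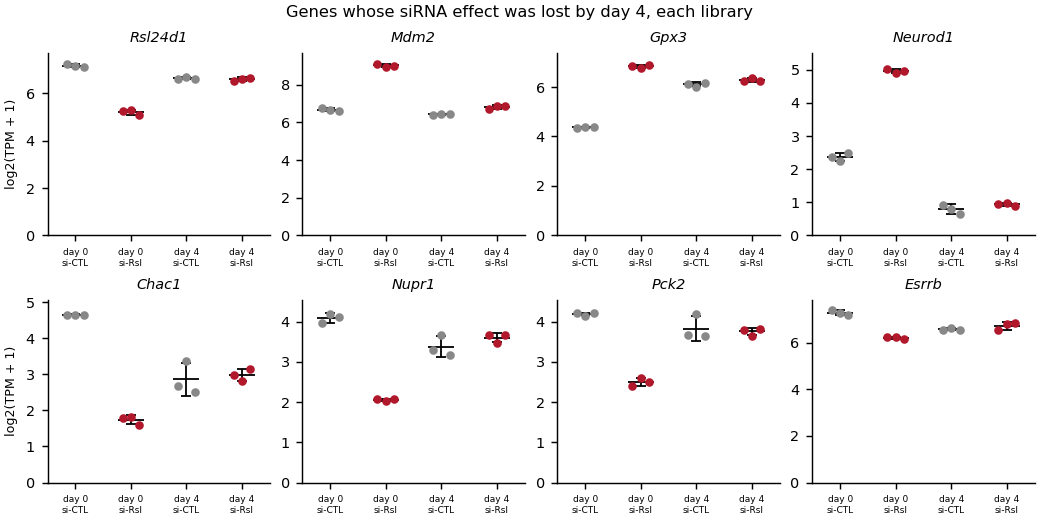
log2(TPM + 1) of 8 genes in each of the 12 libraries without rescue; points are libraries, grey for si-CTL and red for si-Rsl24d1, and horizontal lines with bars give the mean and SD (n = 3). Mdm2, Gpx3 and Neurod1 are high in the day 0 si-Rsl24d1 libraries, and Rsl24d1, Chac1, Nupr1, Pck2 and Esrrb low, whereas the day 4 groups lie close together.

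Developmental genes were also found among the lost rises. Of 20 neural and ectoderm markers tested, 3 had a called lower interaction and 0 a higher one, with a list median of 0.24. Without si-Rsl24d1 replicate 1 at day 4 there were also 2 higher calls, and without si-CTL replicate 3 at day 0 there was 1. Neurod1, a proneural transcription factor, was at 2.36, 2.25 and 2.50 in si-CTL and 5.02, 4.91 and 4.96 in si-Rsl24d1 at day 0, and fell to 0.93, 0.81 and 0.64 in si-CTL and 0.96, 0.98 and 0.88 in si-Rsl24d1 at day 4 (interaction -2.45 ± 0.11, limma, adjusted p = 4.5e-12). Its level was thus far lower at day 4 than at day 0 on both arms. Dll1, a Notch ligand, had an interaction of -2.05 ± 0.17 and Nrcam, a neuronal adhesion molecule, of -2.01 ± 0.18. Of 18 post-implantation epiblast genes, 5 were lower and 2 higher. Wnt8a had the largest of the 5 (-1.96 ± 0.11), with a day 0 effect of 2.22 and a day 4 effect of 0.26. Pou3f1 (-0.97 ± 0.08) and Fgf5 (-0.93 ± 0.17) followed, whereas the DNA methyltransferase Dnmt3b (1.13 ± 0.13) and Etv4 (0.87 ± 0.11) were the 2 called higher. Fgf5 is not called with 2 added to the TPM (-0.71), and Etv4 is not called under that setting or under median of ratios scaling (0.74 in each). Etv4 is also not called without replicate 1 of si-CTL or si-Rsl24d1 at day 0, or without si-CTL replicate 1 or si-Rsl24d1 replicate 2 or 3 at day 4 (0.81 to 0.85). Among primitive streak and mesoderm genes, Tbx4 (-1.99 ± 0.11) and Wnt3 (-1.38 ± 0.14) were lower and 4 of 21 were higher (2 with 2 added to the TPM). For Wnt, Nodal, BMP and FGF signalling genes the calls were even, 5 higher and 5 lower of 36, with Bmp7 at -1.33 ± 0.10 and the FGF feedback inhibitor Spry4 at 1.43 ± 0.14. The higher calls were 3 after median of ratios scaling, without si-CTL replicate 1 of either day and without si-Rsl24d1 replicate 2 or 3 at day 4, and 2 with 2 added to the TPM. Serpine2, a protease inhibitor (-1.81 ± 0.08), and Tap1, the peptide transporter of antigen presentation (-1.81 ± 0.12), were lost rises from the extracellular matrix and interferon lists. Of 10 Hox genes tested, of 39 listed, 1 was called, Hoxc13 (-1.27 ± 0.11), which is not called with 2 added to the TPM (-0.84). A second Hox gene was called lower after median of ratios scaling and without replicate 2 of si-CTL or si-Rsl24d1 at day 4, and 1 was called higher without si-Rsl24d1 replicate 1 at day 0 or replicate 3 at day 4.

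The lost falls were led by targets of ATF4. Of 28 genes of that list tested, 19 had a called higher interaction and 1, Ddit4, a lower one, with a median interaction of 1.05 beside 0.14 for all genes, the highest of the lists examined. At day 0 the siRNA lowered 14 of them and raised 1, and at day 4 it called 0 in either direction (17 at an unadjusted limma p below 0.05). Over all 16447 genes tested, 8741 had such a p at day 4. The mean level of the list was 5.02 to 5.14 in si-CTL at day 0, 4.28 to 4.32 in si-Rsl24d1 at day 0, 4.24 to 4.51 in si-CTL at day 4 and 4.49 to 4.61 in si-Rsl24d1 at day 4. Here the si-CTL cells of day 0 were the group apart, and by day 4 si-CTL cells had come down to the level that si-Rsl24d1 cells held at day 0. After median of ratios scaling, 16 were higher and 1 lower, with a median of 0.90.

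Promoter windows were searched for CARE, the C/EBP-ATF response element (TGATGNAA), and CRE (TGACGTCA), on both strands. The windows, from RefSeq on GRCm38.p6, span 250 bases before to 50 after an annotated start. Windows were found for 11432 of the 16447 genes tested, at a mean of 1.28 a gene, and 8 genes held both motifs. CARE was found for 305 genes, or 2.67%. For lost falls it was found for 12 of the 66 genes with a window, or 18.2%, for lost rises 9 of 282 (3.19%), for gained rises 2 of 71 (2.82%) and for gained falls 0 of 10. Among ATF4 targets 7 of 25 held it, and among aminoacyl-tRNA synthetases 5 of 12. CRE was found for 3.43% of all genes tested and 1.52% of lost falls. The 12 lost falls with CARE, named by the motif and not by the size of their change, were Aars, Chac1, Herpud1, Hrk, Jdp2, Nupr1, Pck2, Pycr1, Slc1a4, Trib3, Vldlr and Yars. A match describes letters in the window and does not show binding. The stretches below are shown for the named genes with the largest changes, in the direction of transcription, with CARE in capitals; each reads as the reverse complement of the motif as spelled above.
Chac1 (chr2:119351004-119351101, plus strand): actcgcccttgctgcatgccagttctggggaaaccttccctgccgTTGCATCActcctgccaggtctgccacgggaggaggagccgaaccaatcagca
Nupr1 (chr7:126625528-126625625, minus strand): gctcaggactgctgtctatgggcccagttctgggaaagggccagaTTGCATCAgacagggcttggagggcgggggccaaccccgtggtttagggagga
Pck2 (chr14:55540118-55540215, plus strand): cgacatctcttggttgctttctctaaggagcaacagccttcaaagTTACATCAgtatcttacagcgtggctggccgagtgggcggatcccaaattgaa
Vldlr (chr19:27216775-27216872, plus strand): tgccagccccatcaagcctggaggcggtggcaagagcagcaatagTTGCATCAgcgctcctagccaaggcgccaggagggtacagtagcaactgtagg
Aars (chr8:111033685-111033782, plus strand): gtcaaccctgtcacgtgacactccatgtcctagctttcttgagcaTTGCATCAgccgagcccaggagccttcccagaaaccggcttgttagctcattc
The match began 193 bases before the annotated start in Chac1, 110 in Nupr1, 103 in Pck2, 200 in Vldlr and 112 in Aars.

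Chac1, which encodes a glutathione-degrading enzyme (chromosome 2, 119351229 to 119354381, plus strand), had the largest interaction of the protein-coding lost falls. At day 0 it was at 4.66, 4.64 and 4.66 in si-CTL and at 1.79, 1.83 and 1.60 in si-Rsl24d1. At day 4 it was at 2.69, 3.37 and 2.52 in si-CTL and at 2.99, 2.81 and 3.14 in si-Rsl24d1. The groups overlapped at day 4. The effect was -2.91 ± 0.19 at day 0 and 0.12 ± 0.19 at day 4 (95% interval -0.28 to 0.52), and the interaction 3.03 ± 0.27 (limma, adjusted p = 4.8e-08). From day 0 to day 4 it fell by 1.79 ± 0.19 in si-CTL (limma, adjusted p = 8.1e-08), and it rose by 1.24 in si-Rsl24d1 (adjusted p = 1.1e-05).

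Nupr1, a small stress-induced nuclear protein, had the same pattern. It was at 3.96, 4.19 and 4.12 in si-CTL and 2.08, 2.02 and 2.07 in si-Rsl24d1 at day 0, and at 3.29, 3.67 and 3.16 in si-CTL and 3.67, 3.47 and 3.66 in si-Rsl24d1 at day 4 (interaction 2.25 ± 0.18, limma, adjusted p = 8.5e-09). Pck2, the mitochondrial phosphoenolpyruvate carboxykinase, was at 4.21, 4.15 and 4.21 in si-CTL and 2.40, 2.59 and 2.49 in si-Rsl24d1 at day 0, and at 3.66, 4.18 and 3.63 in si-CTL and 3.80, 3.65 and 3.81 in si-Rsl24d1 at day 4 (interaction 1.63 ± 0.15, limma, adjusted p = 8.7e-08). In each of the 3 genes, replicate 2 was the highest of the si-CTL libraries at day 4. Ddit4, an inhibitor of mTORC1 that is also a stress target, went the other way, with an effect of 1.74 at day 0 and -0.04 at day 4 (interaction -1.78 ± 0.09). Vldlr, a lipoprotein receptor, had an effect of -0.89 at day 0 and 0.75 at day 4 (interaction 1.64 ± 0.13).

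Aminoacyl-tRNA synthetases, which charge tRNAs for translation and many of which ATF4 also targets, moved in the same direction. Of 19 cytosolic synthetases tested 7 had a called higher interaction and 0 a lower one, and all 19 estimates were above 0 (median 0.67). Over all 16447 genes tested, 10699 estimates were above 0 (median 0.14). Nars, Sars and Aars, for asparagine, serine and alanine, had interactions of 1.32 ± 0.11, 1.30 ± 0.10 and 1.26 ± 0.12. Sars was at 7.77, 7.82 and 7.72 in si-CTL and 6.60, 6.70 and 6.62 in si-Rsl24d1 at day 0, and at 7.25, 7.45 and 7.13 in si-CTL and 7.45, 7.42 and 7.50 in si-Rsl24d1 at day 4. Ubap1l (2.07 ± 0.17) and Mef2b (2.04 ± 0.14), outside these lists, were the remaining lost falls with the largest interactions by the naming rule.

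Lost falls were also found among naive pluripotency factors, with 4 of 25, as among the synthetases, with 4 of 19. Of the 25, 8 had a called higher interaction and 0 a lower one, with a median of 0.63 (7 higher and a median of 0.48 after median of ratios scaling). Esrrb, an orphan nuclear receptor of the naive network, was at 7.38, 7.27 and 7.17 in si-CTL and 6.23, 6.22 and 6.13 in si-Rsl24d1 at day 0, and at 6.54, 6.61 and 6.53 in si-CTL and 6.53, 6.79 and 6.84 in si-Rsl24d1 at day 4 (interaction 1.24 ± 0.12, limma, adjusted p = 1.1e-07). The day 4 groups overlapped, and the difference between the days in si-CTL was -0.71 ± 0.08. Nr0b1 was at 6.26, 6.26 and 6.20 in si-CTL and 5.13, 5.14 and 5.03 in si-Rsl24d1 at day 0, and at 4.77, 5.00 and 4.74 in si-CTL and 4.87, 4.84 and 5.07 in si-Rsl24d1 at day 4 (interaction 1.23 ± 0.11, limma, adjusted p = 5.0e-08). Zfp42, also known as Rex1, had an effect of -0.96 at day 0 and 0.07 at day 4 (interaction 1.03 ± 0.07, adjusted p = 8.4e-10). Tet2, a DNA demethylase (1.35 ± 0.23), and Klf4 (0.85 ± 0.13) were called without passing the threshold on either day. Klf4 is not called with 2 added to the TPM (0.81), after median of ratios scaling (0.71), or without si-CTL replicate 1 or si-Rsl24d1 replicate 3 at day 0, or si-CTL replicate 1 or 3 or si-Rsl24d1 replicate 3 at day 4 (0.76 to 0.84).

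The core factors had smaller values. Pou5f1 was at 10.10, 10.13 and 10.13 in si-CTL and 9.81, 9.80 and 9.82 in si-Rsl24d1 at day 0, and at 9.01, 9.10 and 8.96 in si-CTL and 8.97, 8.96 and 9.02 in si-Rsl24d1 at day 4. Its interaction of 0.27 ± 0.05 and that of Nanog, 0.30 ± 0.05, passed adjusted p (5.2e-04 and 2.0e-04, limma) but not the fold threshold. For Sox2 the interaction was 0.08 ± 0.08 (limma, adjusted p = 0.43), and -0.08 after median of ratios scaling. Of 10 core genes, 1 was called, the RNA-binding protein gene Lin28a (0.98 ± 0.12), which is at 0.82 and below the threshold after that scaling. The count was 2 without replicate 2 of si-CTL or si-Rsl24d1 at day 0, si-CTL replicate 2 at day 4 or si-Rsl24d1 replicate 1 at day 4. Among 20 Polycomb subunits, which deposit repressive histone marks, 2 were called higher, Epop (1.16 ± 0.11) and Phf19 (0.85 ± 0.17). Phf19 lay at the threshold and is not called with 2 added to the TPM (0.75), after median of ratios scaling (0.70) or in 8 of the 12 fits that leave out 1 library (0.71 to 0.85), namely without si-CTL replicate 1 or 2 of either day, si-Rsl24d1 replicate 1 or 3 at day 0, or si-Rsl24d1 replicate 2 or 3 at day 4. Without si-CTL replicate 1 at day 0, 1 subunit was called lower. The PRC2 core genes Eed (0.55 ± 0.05), Suz12 (0.50 ± 0.11) and Ezh2 (0.33 ± 0.08) were not called.

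Gained rises were led by genes of contractile and matrix-producing cells. Of 22 contractile actin and smooth muscle genes 7 were called higher and 0 lower (median 0.66; 9 higher without si-Rsl24d1 replicate 1 at day 4), and the siRNA raised 7 at day 4 and 0 at day 0. Of 30 extracellular matrix and adhesion genes 10 were higher and 1 lower (median 0.65), with 12 raised at day 4 and 1 at day 0. The matrix list had a mean level of 4.19 to 4.37 in si-CTL and 4.34 to 4.37 in si-Rsl24d1 at day 0, and of 4.76 to 4.85 in si-CTL and 5.29 to 5.66 in si-Rsl24d1 at day 4. In bulk libraries, more cells of a type and more RNA per cell cannot be told apart.

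Col3a1, a fibrillar collagen gene (chromosome 1, 45311538 to 45349706, plus strand), was at 1.06, 1.34 and 1.08 in si-CTL and 0.83, 1.45 and 0.74 in si-Rsl24d1 at day 0, and rose to 3.49, 3.94 and 3.65 in si-CTL and 5.53, 5.74 and 5.94 in si-Rsl24d1 at day 4. The groups overlapped at day 0 and were apart at day 4 (interaction 2.20 ± 0.28, limma, adjusted p = 4.9e-06). Actc1, cardiac actin, was at 0.82, 0.77 and 0.97 in si-CTL and 0.55, 0.95 and 0.27 in si-Rsl24d1 at day 0, and at 4.71, 4.80 and 4.69 in si-CTL and 6.59, 6.73 and 6.69 in si-Rsl24d1 at day 4 (interaction 2.20 ± 0.16, limma, adjusted p = 4.5e-09). Both genes rose from day 0 to day 4 in si-CTL, by 2.53 for Col3a1 and 3.88 for Actc1. The rise was larger in si-Rsl24d1, at 4.73 and 6.08. Tnc, a matrix glycoprotein (2.09 ± 0.13), Col1a1 (2.05 ± 0.21), smooth muscle actin Acta2 (1.42 ± 0.11) and Actg2 (1.36 ± 0.13) were called in the same direction.

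Of 18 trophoblast and keratin markers 5 were called higher and 0 lower, with 3 higher after median of ratios scaling and 3 without si-CTL replicate 2 at day 4. Plac1, a placental gene on the X chromosome, was at 0.93, 1.17 and 0.92 in si-CTL and 1.03, 1.35 and 1.14 in si-Rsl24d1 at day 0, and at 1.17, 1.1 and 1.25 in si-CTL and 3.27, 3.13 and 3.17 in si-Rsl24d1 at day 4 (interaction 1.84 ± 0.13, limma, adjusted p = 1.7e-09). Unlike Col3a1, Plac1 did not pass the threshold with RA in si-CTL (0.17 ± 0.09). Igf2, a growth factor, had an interaction of 1.11 ± 0.11, on top of a rise from day 0 to day 4 in both groups. Of 23 endoderm genes 3 were higher and 0 lower, namely Lama1 (1.82 ± 0.18), Cubn (1.06 ± 0.21) and Lamc1 (1.02 ± 0.15), with 5 higher without si-Rsl24d1 replicate 1 at day 4. Of 28 RA metabolism and target genes 2 were higher, Meis2 (0.96 ± 0.13) and Nr2f1 (0.88 ± 0.15). Meis2 and Nr2f1 are not called after median of ratios scaling (0.80 and 0.75), and Nr2f1 has an interaction of 0.22 with 0.1 added to the TPM. Nr2f1 is also not called with 2 added (0.84) or without si-Rsl24d1 replicate 3 of either day or si-CTL replicate 2 at day 4 (0.81 to 0.84). The RA list had 4 higher calls without si-Rsl24d1 replicate 1 of either day or replicate 2 at day 0, 1 without si-Rsl24d1 replicate 3 at day 0, 5 higher and 2 lower with 0.1 added, and 1 lower call without replicate 2 of si-CTL or si-Rsl24d1 at day 4 and after median of ratios scaling. From the mesoderm list, Osr1 (1.13 ± 0.12) was a gained rise.

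The markers of other cell types were read beside the gained rises. Of 18 fibroblast and blood markers, 11 were tested, and Col1a1, Col3a1 and Postn (1.55 ± 0.11) were called higher and 0 lower. The list's mean level was 1.42 to 1.45 in si-CTL and 1.34 to 1.38 in si-Rsl24d1 at day 0, and 1.98 to 2.05 in si-CTL and 2.32 to 2.38 in si-Rsl24d1 at day 4. Hbb-bt, a globin gene, was listed at 0 in the 12 libraries. Of the 18 genes, 6 were below 0.5 in each of the 12. These included the fibroblast markers Lum and Fap and the leukocyte markers Ptprc and Lyz2. The rest of the list exceeded 0.5 in some library. The highest value among the 12 libraries was 5.93 for Pecam1, 5.83 for Col1a2, 4.93 for Cd68 and 2.96 for Thy1. That maximum was 2.13 for Dcn, 1.93 for Pdgfrb and 1.52 for Hba-a1, another globin gene. The trophoblast list was at 3.62 to 3.74 in si-CTL and 4.26 to 4.47 in si-Rsl24d1 at day 4. Its groups were already apart at day 0, at 3.28 to 3.42 in si-CTL and 3.49 to 3.52 in si-Rsl24d1. The part of such cells in the gained rises was not tested. The count of gained rises also rested on 1 library: without si-Rsl24d1 replicate 1 at day 4 it was 175 in place of 107, and it was 57 after median of ratios scaling.

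The genes with a gained fall were few. Gal, which encodes the neuropeptide galanin, was at 0.63, 0.61 and 0.60 in si-CTL and 1.5, 1.35 and 1.33 in si-Rsl24d1 at day 0, and at 2.87, 2.88 and 2.84 in si-CTL and 1.83, 1.4 and 1.31 in si-Rsl24d1 at day 4. It rose with RA in si-CTL by 2.25, whereas the difference between the days in si-Rsl24d1 was 0.12 (interaction -2.13 ± 0.17, limma, adjusted p = 7.7e-09). Wfdc15a went from 1.10, 1.17 and 0.98 in si-CTL and 1.32, 1.55 and 0.63 in si-Rsl24d1 at day 0 to 3.31, 3.53 and 3.07 in si-CTL and 2.28, 1.94 and 1.58 in si-Rsl24d1 at day 4 (interaction -1.46 ± 0.27, limma, adjusted p = 2.5e-04). Cyp2b23 (-1.37 ± 0.12) and Dmrtc1c2 (-1.34 ± 0.28) were the others named by the rule, and Dmrtc1c2 is not called when only the 12 libraries without rescue are fitted (limma, adjusted p = 0.01). The germ cell genes Dazl (-1.06 ± 0.14) and Tex101 (-0.96 ± 0.14) were called lower with day 4 effects of -0.71 and -0.77, short of the threshold. Of 29 germline and 2-cell stage genes, 4 were lower and 1, Prdm1 (1.02 ± 0.13), higher. There were 8 lower and 3 higher with 0.1 added to the TPM, 2 lower with 2 added, where Tex101 is not called (-0.76), and 2 higher without si-Rsl24d1 replicate 1 at day 0.

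Dcxr and Anxa8 changed direction past the threshold on both days. Dcxr encodes dicarbonyl/L-xylulose reductase (chromosome 11, 120725399 to 120727281, minus strand). It was at 4.62, 4.57 and 4.68 in si-CTL and 6.78, 6.70 and 6.88 in si-Rsl24d1 at day 0, and at 6.28, 6.10 and 6.21 in si-CTL and 5.37, 5.34 and 5.33 in si-Rsl24d1 at day 4. The siRNA effect was 2.16 ± 0.06 at day 0 and -0.85 ± 0.06 at day 4 (95% interval -0.98 to -0.73), an interaction of -3.02 ± 0.08 (limma, adjusted p = 9.6e-15). Anxa8, a calcium-dependent membrane-binding annexin (chromosome 14, 34085981 to 34100571, plus strand), was at 1.58, 1.64 and 1.68 in si-CTL and 3.50, 3.41 and 3.37 in si-Rsl24d1 at day 0, and at 3.40, 3.28 and 3.29 in si-CTL and 2.28, 2.24 and 2.20 in si-Rsl24d1 at day 4 (interaction -2.88 ± 0.09, limma, adjusted p = 1.3e-14). In both genes the level was higher at day 4 than at day 0 in si-CTL, by 1.57 and 1.69. In si-Rsl24d1 it was lower at day 4, with changes of -1.44 and -1.19. With no overlap between groups on either day, the order of the groups was inverted. The number of reversed genes was 10 with 0.1 added to the TPM, 1 with 2 added and 4 without si-Rsl24d1 replicate 1 at day 4.

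**Figure D3:**
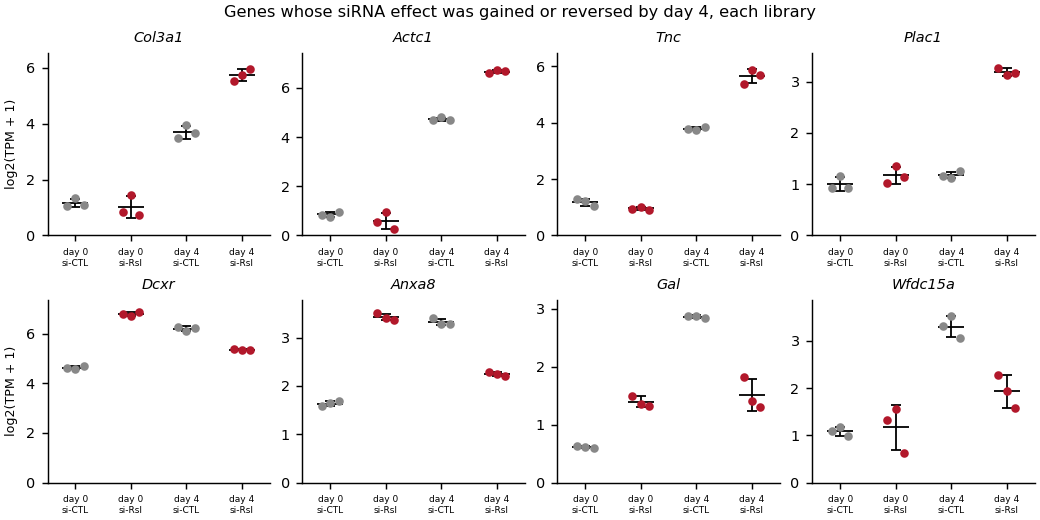
log2(TPM + 1) of 8 genes in each of the 12 libraries without rescue; points are libraries, grey for si-CTL and red for si-Rsl24d1, and horizontal lines with bars give the mean and SD (n = 3). Col3a1, Actc1, Tnc and Plac1 separate at day 4, Dcxr and Anxa8 invert their order between the days, and Gal and Wfdc15a rise less in si-Rsl24d1.

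Among the 340 genes called with neither day past the threshold, 272 were higher and 68 lower. Their median day effects were -0.57 and 0.46 for the 272 and 0.63 and -0.32 for the 68, so the interaction was the sum of smaller effects of opposite sign. The largest were Serpinf1 (1.48 ± 0.17), Igfbp3 (1.44 ± 0.08), Rest (1.43 ± 0.24) and Ankrd45 (1.39 ± 0.17) in the higher direction and Cd2 (-1.27 ± 0.14), Ccna1 (-1.27 ± 0.23), Dpep3 (-1.13 ± 0.15) and Nudt14 (-1.09 ± 0.08) in the lower. Dpep3 is not called with 2 added to the TPM (-0.80). Igfbp3, an insulin-like growth factor binding protein, was at 6.51, 6.43 and 6.52 in si-CTL and 5.72, 5.88 and 5.78 in si-Rsl24d1 at day 0, and at 4.04, 4.09 and 4.08 in si-CTL and 4.79, 4.81 and 4.84 in si-Rsl24d1 at day 4. Its groups were inverted without overlap although each day's effect, -0.69 and 0.74, was short of the threshold.

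The machinery that RSL24D1 serves held few genes past the fold threshold, beside 477 higher and 445 lower of all 16447 genes tested. Without that threshold, 22 of 50 large subunit proteins were lower and 3 higher (limma, adjusted p below 0.01). Over all genes, 1452 were lower and 3630 higher in that way. The interaction had an unadjusted limma p below 0.05 for 8533 of all 16447 genes, to be read beside the counts at that level below. Estimates were below 0 for 46 of 50 large and 33 of 34 small subunit proteins, beside 5748 of all 16447 genes. Of 50 proteins of the large subunit 1 was called, Rpl22l1, a paralog of RPL22 (0.94 ± 0.16; 0.78 and not called after median of ratios scaling; 0.77 and not called without si-Rsl24d1 replicate 1 at day 4). Of 34 proteins of the small subunit 0 were called, 21 of them lower at an adjusted p below 0.01 without the fold threshold, 27 of them at an unadjusted limma p below 0.05, and 1 was called after median of ratios scaling and without si-CTL replicate 3 or si-Rsl24d1 replicate 2 at day 0 or si-Rsl24d1 replicate 1 at day 4. The medians of both lists were -0.31. The share of TPM in ribosomal protein mRNAs was 16.3% to 17.8% in si-CTL and 18.5% to 19.4% in si-Rsl24d1 at day 0, against 21.6% to 22.3% and 18.2% to 21.3% at day 4. Rpl24 had an interaction of -0.19 ± 0.09 and the pre-60S factor Eif6 of 0.35 ± 0.06, neither called. Of 40 large subunit biogenesis factors 1 was called, Rsl24d1 itself. Of 30 cell cycle genes 0 were called (27 at an unadjusted limma p below 0.05), and Ccnd1 (0.82 ± 0.11) and Cdkn2b (-0.82 ± 0.10) came closest to the threshold. Cdkn2b is called after median of ratios scaling (-0.96), with 0.1 added to the TPM (-0.95) and without si-CTL replicate 3 at day 0 or replicate 2 of si-CTL or si-Rsl24d1 at day 4 (-0.91 to -0.86), and Ccnd1 with 0.1 added (0.86) and without si-CTL replicate 3 at day 0 (0.85) or si-Rsl24d1 replicate 1 at day 4 (0.91).

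Calls in the remaining lists are given beside 2.9% higher and 2.71% lower over all genes tested. An unadjusted limma p below 0.05 was found for 8533 of the 16447 genes. Of 24 glycolysis and hypoxia genes 3 were higher, Vegfa (1.09 ± 0.06), Pfkp (0.99 ± 0.10) and Ndrg1 (0.92 ± 0.09), and of 24 lysosome genes 1, Hexa (1.29 ± 0.06). Pfkp and Ndrg1 are not called after median of ratios scaling, nor Ndrg1 with 2 added to the TPM, and 1 gene of the glycolysis list was called lower after that scaling and without si-CTL replicate 2 or si-Rsl24d1 replicate 3 at day 0. Of 21 antioxidant genes 2 were lower, Gpx3 and Gsto1 (-0.95 ± 0.07). Of 17 interferon response genes Ddx58 was higher (1.02 ± 0.12) and Tap1 lower. Of 15 mitochondrially encoded genes 1 was called, mt-Nd6 (1.20 ± 0.28), and it is not called when only the 12 libraries without rescue are fitted (limma, adjusted p = 0.017). Of 8 transcripts without poly-A tails 0 were called (1 at an unadjusted limma p below 0.05), with interactions of -2.41 ± 0.90 for Rn7sk and -2.28 ± 1.42 for Rny3, whose libraries of 1 group differed widely. Rn7sk is called without si-CTL replicate 1 at day 4 (-3.16). The median of these 8 was -1.92 without rescue and 3.88 with rescue, where 1 was called higher. The largest estimate of all calls was that of the pseudogene Gm10222 (15.19 ± 3.20), a copy of mitochondrial sequence whose reads cannot be assigned with certainty, and which fell outside the naming rule.

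**Figure D4:**
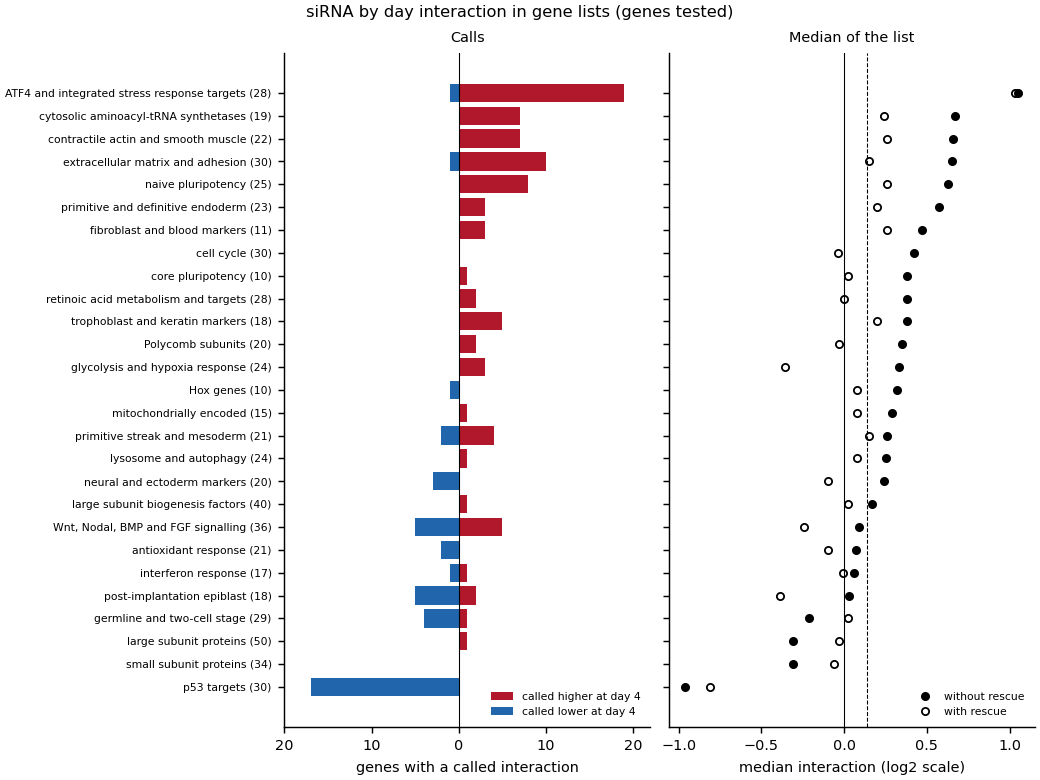
Called interaction genes in each gene list (left, to the right of 0 for genes whose siRNA effect was higher at day 4 and to the left for lower) and the median interaction of the list on the log2(TPM + 1) scale (right), filled without rescue and open with rescue; the dashed line is the median of all genes without rescue, 0.14. Of the lists drawn, which leave out the 8 transcripts without poly-A tails, ATF4 targets and p53 targets lie at opposite ends, at 1.05 and -0.96 without rescue and 1.03 and -0.81 with rescue.

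The response to RA was then set beside the classes, measured in the si-CTL libraries with rescue. Their group means did not enter the sorting, although they shared in the estimate of the spread per gene and in the filter on low values. In these libraries 1767 genes (10.7%) were higher at day 4 than at day 0 and 792 (4.82%) lower. The balance differed in si-CTL without rescue, whose libraries enter the interaction, with 1114 genes higher and 1355 lower. Shares and medians below are from the libraries with rescue. Raised or lowered by RA stands for this difference between the days, which also holds time after transfection. Of gained rises 52 of 107 were raised by RA, or 48.6%, and of gained falls 13 of 17, or 76.5%. Of lost falls 43 of 98 were lowered by RA, or 43.9%, and 7.14% were raised. Lost rises had shares nearer the background, 17% raised and 3.35% lowered. The median RA response of the classes was 0.80 for gained rises, 1.68 for gained falls, -0.65 for lost falls and 0.27 for lost rises, beside 0.12 for all genes. Dcxr and Anxa8 were both raised by RA in the si-CTL libraries with rescue.

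The same interaction was measured in the 12 libraries with rescue, which share no library with the others but share the estimate of the spread per gene. With rescue, Rsl24d1 was at 7.31, 7.24 and 7.21 in si-CTL and 6.70, 6.60 and 6.94 in si-Rsl24d1 at day 0, a smaller gap than without rescue. These values can hold both the targeted and the ectopic mRNA, which a value per gene symbol does not separate. The interaction was called higher for 103 genes (0.626%) and lower for 243 (1.48%). Of the 922 genes, 886 had the same sign and 280 were called in the same direction, and 0 in the opposite one. Over all 16447 genes tested, 10164 had the same sign, 324 were called in that direction and 22 in the opposite one. Both reversed genes were called again, as were 211 of 358 lost rises or 58.9%, with a median of -0.94 against -1.25 without rescue. Of lost falls 35 of 98 were called again (0.66 against 1.21), and gained rises had 16 of 107 (0.45 against 1.13) and gained falls 0 of 17. For 883 of the 922 the size of the estimate was below that without rescue, as it was for 11073 of all 16447 genes. Since the 922 were chosen on the libraries without rescue, a smaller estimate elsewhere is partly set by that choice.

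By group of genes, p53 targets had 14 called lower of 30 with rescue and a median of -0.81, and ATF4 targets had 19 higher and 1 lower of 28 and a median of 1.03. Chac1 was at 4.62, 4.63 and 4.51 in si-CTL and 2.18, 2.40 and 2.12 in si-Rsl24d1 at day 0 with rescue, and at 3.22, 2.35 and 2.72 in si-CTL and 3.74, 3.62 and 3.34 in si-Rsl24d1 at day 4, an interaction of 3.16 (limma, adjusted p = 9.6e-08). Its interaction without rescue and with rescue differed by -0.13 (adjusted p = 0.84). Of 25 naive pluripotency genes 0 were called with rescue (17 at an unadjusted limma p below 0.05), and of 22 contractile genes 3 were. Over all 16447 genes tested, 4834 had such a p with rescue. A call made without rescue and missed with rescue does not show that the interactions differ.

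The difference of the interactions was therefore tested. It was called higher for 76 genes (0.462%) and lower for 55 (0.334%) of all genes. Of the 922, 73 were among these, 20 of them gained rises, 18 lost rises and 15 lost falls. Rsl24d1 itself, whose level with rescue can include the ectopic mRNA, had interactions of 1.91 without rescue and 0.65 with rescue, a difference of 1.26 (limma, adjusted p = 6.2e-05). Anxa8 had interactions of -2.88 without rescue and -1.49 with rescue, a difference of -1.39 (adjusted p = 9.9e-06), and Dcxr of -3.02 and -2.04, a difference of -0.97 (adjusted p = 1.4e-04). For Col3a1 the difference of 1.02 did not pass the test (adjusted p = 0.085).

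**Figure D5:**
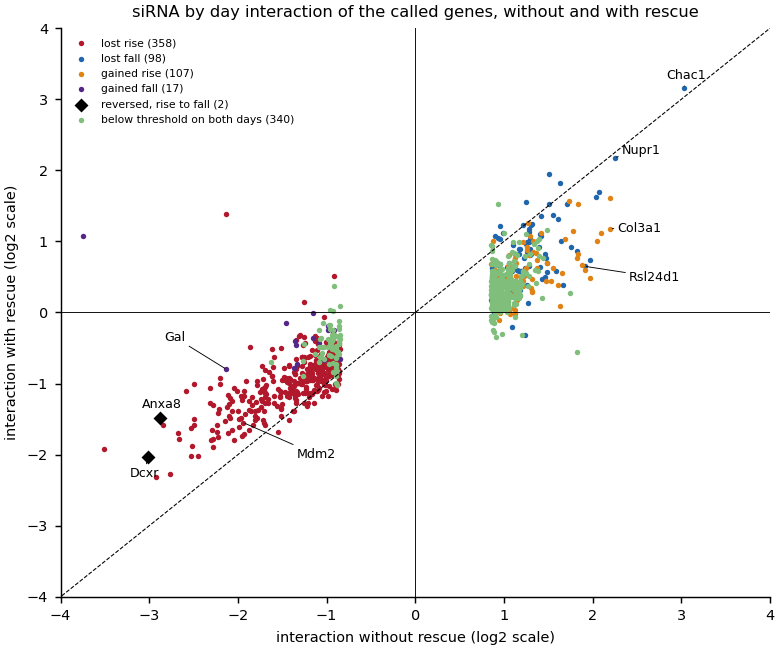
Interaction of the 922 called genes without rescue (x axis) and with rescue (y axis), on the log2(TPM + 1) scale, from separate libraries; colours mark the classes and the dashed line equal values. Chac1 and Nupr1 lie near the line, Anxa8 and Rsl24d1 lie off it towards 0, and 3 genes lie outside the axes.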

How the data were processed

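RNA-seq was measured in 24 libraries of CGR8 cells. Per the paper's methods and the labels, the authors aligned or quantified reads with STAR and Salmon, and they deposited 1 table of log2(TPM + 1) for 54242 gene symbols. The submitters' processing notes name STAR 2.7.8a, Salmon 1.4.0 and GRCh38, a human build, whereas the paper's methods name mouse annotation and other versions. Library kit (poly-A or total RNA), medium, presence of LIF with RA and time after transfection (48 h in sample descriptions, 72 h in the protocol) also conflict between labels and paper and were not settled. The TPM behind the deposited log2 values add up to 1000000 for every library; depth is not kept, no count model was fitted and no counting interval is given, and precision rests on 3 libraries a group. 

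Genes with a mean of at least 0.5 over the 24 libraries were tested (16447). Limma 3.58.1 in R 4.3.3 was fitted to 8 group means over the 24 libraries, with an intensity trend and no replicate term, and p-values are two-sided with Benjamini-Hochberg adjustment over all genes tested; ± in the text is the SE of the fit. The fit was tested on simulated data. A gene was called at an adjusted p below 0.01 and a difference over 1.8-fold. Interaction genes were sorted by the calls at each day. Libraries that shared a replicate number did not deviate together (mean residual correlation -0.0173 over 84 same-number pairs, range -0.223 to 0.169). No library duplicated another.

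Named genes are a fixed set, up to 4 protein-coding genes per class and direction with the largest interaction and separated differences, and up to 3 called genes per list and direction (the 2 with the largest values where none was called). Lists were written from general knowledge. The members and lists were chosen with earlier results of these data known, so their counts are descriptions and no list was tested as a set. One list and 1 gene at the threshold are not reported here. Of 21 transcripts in the list without poly-A tails, 8 matched the table by symbol. Coordinates are gencode vM21 on GRCm38, and promoter windows are RefSeq's, matched by symbol. Alternatives were the value added to the TPM, the filter, the libraries fitted, a replicate block, median of ratios scaling, the thresholds, the trend and each library left out. Values of the lists under the alternatives were added after the data were seen.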

Additional observations from a re-analysis of the deposited data

Results flagged for a closer look

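The siRNA effect differed between day 0 and day 4 for 922 genes by the interaction test, and these genes are the subject of the text above. For 8 of the genes named there, the interaction itself also differed between cells without and with rescue, by the test of that difference (limma, adjusted p below 0.01 and over 1.8-fold). The difference, without minus with rescue, was 1.26 for Rsl24d1, 0.96 for Tnc, -0.97 for Dcxr, -1.39 for Anxa8, -1.33 for Gal, 0.92 for Dnmt3b, 0.96 for Spry4 and 0.93 for Postn.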

How the results depend on the processing

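Under the 22 alternatives, among the genes each one tests, none of the 86 named genes with a called interaction changed sign; of the named genes not called, Trp53 (-0.09) and Sox2 (-0.08) did so after median of ratios scaling, and the cause was not tested. With replicate number as a block 921 genes were called (475 higher, 446 lower, 919 shared with the 922), and no named gene changed its call. The counts below moved by over 1.5 times. With 0.1 added to the TPM, 1452 genes were called (830 higher), with 193 lost falls, 207 gained rises, 10 reversed, 1224 called at day 0, 601 at day 4, 523 interactions with rescue and 3884 RA effects. With 2 added, 310 were higher, with 64 gained rises, 10 gained falls, 1 reversed, 219 below the threshold on both days and 158 called at day 4. Median of ratios scaling gave 281 higher, 57 gained rises, 33 gained falls and 166 called at day 4. Without a fold threshold, 5082 were called (3630 higher, 1452 lower), with 836 lost rises, 1269 lost falls, 1437 gained rises, 247 gained falls, 125 reversed, 5008 called at day 0, 5087 at day 4, 1637 interactions with rescue, 488 differences of interactions and 9732 RA effects. At an adjusted p below 0.05, 297 differences of interactions were called. Leaving out each of the 12 libraries in turn, interactions ranged from 864 to 1130 (higher 407 to 704, lower 426 to 465), lost rises from 335 to 371, lost falls from 89 to 116, gained rises from 77 to 175, gained falls from 13 to 21, reversed genes from 2 to 4, genes below the threshold from 282 to 493, calls at day 0 from 673 to 728 and at day 4 from 209 to 398. The upper ends of interactions and gained rises came without si-Rsl24d1 replicate 1 at day 4. Arms reduced to 2 libraries share the spread of the other groups. Depth is unknown and sets no stated limit.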
